A study of Mus musculus with 6 samples.

Results

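Tubulin isotypes are the alternative α- and β-tubulin proteins, each encoded by its own gene, from which microtubules are built. The 10 genes described here were chosen by symbol: the β-tubulin genes Tubb6, Tubb3, Tubb2a, Tubb2b, Tubb4a and Tubb5, and the α-tubulin genes Tuba1a, Tuba1b, Tuba1c and Tuba4a. All 10 are among the 32719 genes of the count files. RNA was sequenced from jugular-nodose ganglia of wild-type male C57BL/6J mice, in 3 libraries titled treated and 3 titled control. The protocol describes osmotic pumps under the skin that ran for 2 weeks and delivered either PBS with S961, a peptide that blocks the insulin receptor, at a rate of 10 nmol per week, or PBS alone. S961 stands as the treatment label of the controls too, so the PBS identity of the controls rests on the titles and the protocol, and the age of the mice is not given in the sources used here. Nothing says whether replicates are separate animals, so errors and p-values measure the spread between these libraries, which may be technical.

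Microtubules are polymers of αβ-tubulin pairs, and in sensory neurons they form the tracks along which cargo moves between the cell body and the ends of the axon. The isotypes share nearly all of their folded core and differ most in the tail at the C-terminus, which is where enzymes add or remove amino acids and where many motors and associated proteins bind. Cells also hold their tubulin supply steady by degrading tubulin mRNA when free tubulin is in excess. Tubb3 is the β-tubulin most characteristic of neurons, Tubb2a and Tubb2b are abundant in neurons, Tubb5 is made in most cells and Tubb4a in neurons and oligodendrocytes. Tubb6 is a β-tubulin of many tissues outside the nervous system. Tuba1a is the main α-tubulin of neurons and their growing axons, Tuba1b and Tuba1c are widely made, and Tuba4a is an α-tubulin whose gene does not encode the usual final tyrosine.

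Close copies set how far the counts of single isotypes can be trusted, so the ends of the coding sequences of the pair Tubb2a and Tubb2b are shown first, as the last 100 bases before the stop codon from GENCODE M21 (GRCm38), a stretch as long as 1 read. Capitals mark the bases that differ within the pair.
Tubb2a: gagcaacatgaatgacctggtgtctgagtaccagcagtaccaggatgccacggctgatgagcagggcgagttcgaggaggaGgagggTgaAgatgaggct
Tubb2b: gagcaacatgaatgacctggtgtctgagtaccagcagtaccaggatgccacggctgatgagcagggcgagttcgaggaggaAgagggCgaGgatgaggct
The pair differs at 3 bases of this stretch. Over the whole coding sequence Tuba1a and Tuba1b were 98.3% identical, Tuba1a and Tuba1c 97.2%, and Tubb2a and Tubb2b 96.5%. Tubb6 was at most 86.5% identical to another member, which was Tubb3.

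Of all windows of 100 bases in the main coding transcript, 65.1% in Tuba1a, 69.5% in Tuba1b and 53.4% in Tuba1c also occur in a transcript of another gene, pseudogenes included. The share was 36.9% in Tubb2a and 27.7% in Tubb2b, where most shared windows were those of the other gene of the pair. It was 0% in Tubb6, Tubb3, Tubb4a, Tubb5 and Tuba4a. Strand aside, exact reads of this length from their main coding transcripts therefore occur in no annotated transcript of another gene. Exon bases outside the main transcript, and reads with mismatches, were not checked. The read-through gene Gm49450 shares 473 bases of exon with Tuba1a and 426 with Tuba1b on the same strand, and it held 536 ± 37.2 CPM (counts scaled to the size of the library) in treated and 516 ± 9.29 CPM in control libraries (SD, n = 3). On the opposite strand, Stk16 covers 37.3% of the exon bases of Tuba4a, and the strand setting of the counting is not given. Values of Tuba1a, Tuba1b, Tuba1c, Tubb2a, Tubb2b and Tuba4a as single genes are therefore uncertain.

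Tuba1c and Tuba4a differ in their last codon, which is where the tyrosine cycle of the microtubule takes place. The last 30 coding bases of both are shown with that codon in capitals.
Tuba1c: gctgaaggagacgatgagggtgaggaaTAT
Tuba4a: tcctatgaggacgaggatgagggagaaGAG
The codon that ends Tuba1c encodes tyrosine, the residue that vasohibins (Vash1, Vash2) remove and tubulin tyrosine ligase (Ttl) restores, and the last codon of Tuba4a does not.

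The 6 libraries held between 12898607 and 33522486 gene counts. Treated replicate 3 was the smallest and stood apart, with a correlation of at most 0.944 with another library across 12197 genes, where genes are not independent replicates. Markers of vagal sensory neurons were measured in every library, with summed levels of 2350 to 3077 CPM in treated and 2678 to 2820 CPM in control libraries. The source label reads spinal cord, and the 12 spinal cord markers summed to 50.3 to 61.6 CPM in treated and 62.3 to 63.8 CPM in control libraries. Of these, Mnx1, Olig2, Mog and Lhx1 stayed under 10 counts in every library, and the other 8, with Slc5a7 the highest at 304 to 1104 counts, reached 10 or more in at least 1 library. Pan-neuronal markers summed to 13950, 13045 and 9898 CPM in treated replicates 1, 2 and 3, against 12305 to 13587 CPM in controls. Rbfox3 was highest in treated replicate 3, at 131 CPM against 94.6 to 99.7 CPM in controls, and the other markers of that list were lowest there. In bulk tissue, fewer cells of a type and less RNA per cell cannot be told apart.

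Per length of exon, Tubb3 was the most abundant member in control ganglia, with 599 ± 36.3 CPM per kb (SD, n = 3). Levels per length are CPM divided by the union of a gene's exons, since CPM alone is not comparable between genes. Tuba1a followed with 461 ± 7.25 CPM per kb, then Tubb5 with 255 ± 15.2, Tubb4a with 219 ± 19.0 and Tubb2a with 175 ± 11.0 CPM per kb. Tubb2b had 70.5 ± 6.10 CPM per kb. Tuba4a had 32.2 ± 1.83 CPM per kb and Tuba1b 28.8 ± 3.33, and the ranges of these neighbours overlapped. At the low end Tubb6 had 1.87 ± 0.0501 CPM per kb and Tuba1c 0.277 ± 0.0363 CPM per kb. Every other pair of neighbours in this order had ranges that did not overlap over the 3 controls. With coding length in place of exon length, Tubb5 at 637 CPM per kb and Tuba1a at 614 CPM per kb changed places and overlapped, and Tuba4a and Tuba1b no longer overlapped.

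**Figure D1:**
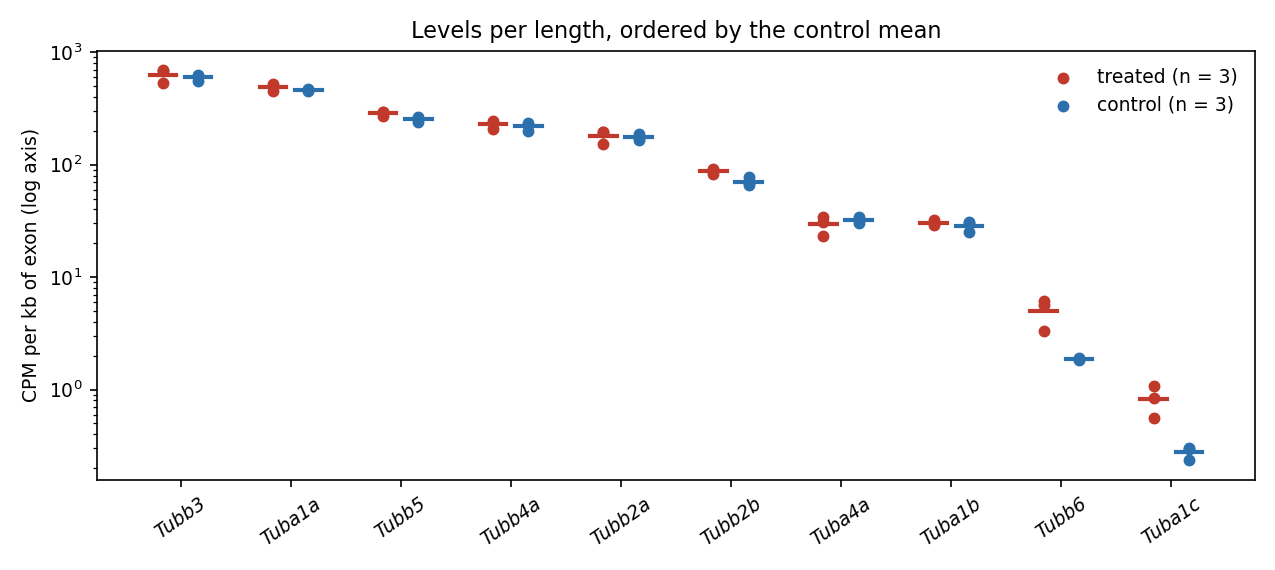
Level of each member per kilobase of exon (log axis) in 3 treated libraries (red, left) and 3 control libraries (blue, right). Points are libraries and bars are means, and genes are ordered by the control mean, from Tubb3 at 599 CPM per kb to Tuba1c at 0.277 CPM per kb.

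What separates ganglia of S961-infused mice from those of controls is the question of the comparison. Tubb6 stood 2.69-fold higher in treated ganglia and Tuba1c 2.99-fold, both from low levels, and Tubb2b stood 1.25-fold higher, while for the abundant isotypes Tubb3, Tubb2a, Tubb4a and Tuba1a the groups overlapped. Tubb5, an abundant isotype too, had every treated library above every control at 1.12-fold. Only Tuba4a had a negative log2 fold change. The members were proposed with results of this same comparison known, so their differences are a description and carry no test. In the edgeR quasi-likelihood fit over 16019 genes, 0 genes passed an adjusted p of 0.05 (0% of all genes tested), and so 0 of the 10 members, all of which passed the low-count filter. By the unadjusted p, 1068 genes were under 0.05.

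Tubb6 lies on chromosome 18 (67390717 to 67402749, plus strand, GRCm38). Its counts were 273, 395 and 188 in treated replicates 1, 2 and 3, and 80, 115 and 69 in the controls. These correspond to 8.12, 13.8 and 15.0 CPM in treated libraries and to 4.59, 4.42 and 4.66 CPM in control libraries. The 3 controls lay within a narrow band and every treated library lay above it, replicate 1 least. The means were 12.3 ± 3.65 CPM in treated and 4.56 ± 0.122 CPM in control ganglia (SD, n = 3), a log2 fold change of 1.42 ± 0.25 (SE). Tubb6 remained a minor isotype, with 0.362 ± 0.135% of the summed β-tubulin members in treated and 0.142 ± 0.0120% in control libraries. Relative to Tubb3 in the same library, a ratio that no scaling of libraries changes, its counts were 0.00644, 0.0107 and 0.0150 in treated libraries and 0.00390, 0.00390 and 0.00447 in controls.

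Tuba1c (chromosome 15, 99029891 to 99038110, plus strand, GRCm38) was the least abundant member. It had 65, 71 and 16 counts in treated libraries and 12, 14 and 10 in controls. At 1.93, 2.47 and 1.27 CPM, all treated libraries lay above the controls at 0.688, 0.539 and 0.676 CPM. The log2 fold change was 1.59 ± 0.44 (SE). The counts of its near copies Tuba1a and Tuba1b exceed those of Tuba1c many times over, and 53.4% of its windows occur in other genes. How reads were shared among these genes was not tested.

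Tubb2b (chromosome 13, 34126748 to 34130466, minus strand, GRCm38), a β-tubulin of developing and growing neurons, had 204, 212 and 189 CPM in treated libraries and 177, 157 and 151 CPM in controls. Its treated libraries lay above its controls, with replicate 3 the lowest of the treated and replicate 1 the highest of the controls. The log2 fold change was 0.32 ± 0.10 (SE). Its near copy Tubb2a (chromosome 13, 34074274 to 34078007, minus strand) had 316, 316 and 245 CPM in treated libraries and 299.8, 279 and 265 CPM in controls, which overlapped, with a log2 fold change of 0.06 ± 0.12. The ratio of Tubb2b to Tubb2a counts was 0.645, 0.671 and 0.771 in treated libraries and 0.592, 0.563 and 0.569 in controls, without overlap. Summed over the pair, the level was 494 ± 51.9 CPM in treated and 443 ± 31.5 CPM in control libraries.

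Tubb3 (chromosome 8, 123411424 to 123422015, plus strand, GRCm38) had 1261, 1291 and 995 CPM in treated libraries and 1177, 1135 and 1044 CPM in controls. Treated replicate 3 was below every control and the other treated libraries above every control, and the log2 fold change was 0.08 ± 0.13 (SE). Tubb4a (chromosome 17, 57080066 to 57087782, minus strand) had 549.5, 521 and 460.2 CPM in treated libraries and 503, 519.9 and 439.7 CPM in controls, at 0.07 ± 0.11. Tubb5 (chromosome 17, 35833921 to 35838306, minus strand) had 982, 971 and 894 CPM in treated libraries and 864, 889 and 792 CPM in controls. For Tubb5 the groups did not overlap, although treated replicate 3 and control replicate 2 came close, and the log2 fold change was 0.16 ± 0.10.

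Among the α-tubulins, Tuba1a (chromosome 15, 98949837 to 98953703, minus strand, GRCm38) had 931, 897 and 821 CPM in treated libraries and 831, 844 and 818 CPM in controls. Its groups overlapped, with a log2 fold change of 0.09 ± 0.10 (SE). The sum of Tuba1a, Tuba1b, Tuba1c and the read-through gene Gm49450, which depends less on how reads were split between them, was 1478 ± 91.5 CPM in treated and 1402 ± 24.7 CPM in control libraries (SD, n = 3). Tuba1b (chromosome 15, 98931425 to 98934565, minus strand) had 54.8, 56.8 and 59.9 CPM in treated libraries and 56.9, 58.1 and 46.8 CPM in controls, at 0.08 ± 0.11. Tuba4a (chromosome 1, 75214228 to 75219865, minus strand) had 128, 114 and 85.7 CPM in treated libraries and 126, 120.1 and 112 CPM in controls, at -0.13 ± 0.15, and its level in treated replicate 3 was the lowest of the 6. Stk16, which overlaps Tuba4a on the other strand, was also lowest in that library, at 13.1 CPM against 26.4 and 27.9 CPM in the other treated libraries and 27.5 to 29.3 CPM in controls.

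**Figure D2:**
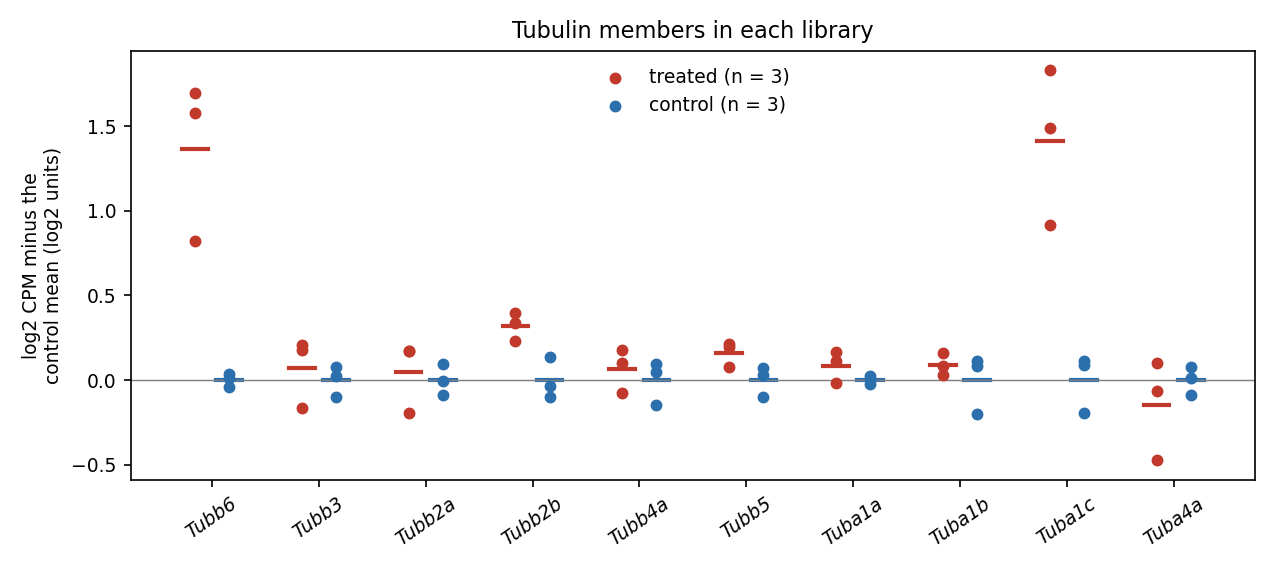
log2 CPM of each member minus its control mean, in 3 treated libraries (red, left) and 3 control libraries (blue, right); points are libraries and bars are means. Tubb6, Tuba1c, Tubb2b and Tubb5 have every treated point above every control point, and the treated points of Tubb3, Tubb2a and Tuba4a reach below their controls in replicate 3.

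Of the members, 9 had a positive log2 fold change, against 52.8% of all genes tested. Every treated library was above every control for 4 members, where 7.07% of all genes tested were so placed, and every treated library was below for 0 members (7.63% of all genes tested). An unadjusted p under 0.05 was found for 3 members on the higher side, Tubb6, Tubb2b and Tuba1c, where 4% of all genes tested were called, and for 0 on the lower side (2.67% of all genes tested). Since the members were chosen with this comparison known, nothing is read from these counts. The median log2 fold change of the 10 members was 0.08, against 0.02 over all genes tested. Without treated replicate 3, in which pan-neuronal markers were lowest, all 10 members had a positive value, as had 8484 of 16747 genes tested. The median of the members was then 0.18, against 0.0032 over all genes tested. Of the members, 6 had an unadjusted p under 0.05 on the higher side (3.63% of all genes tested), which added Tubb3, Tubb2a and Tubb5. The count was 2 without control replicate 2, control replicate 3 or treated replicate 2, since Tubb2b was no longer among them. Over all genes tested the shares were 4.25%, 1.96% and 4.52%. With scaling on pan-neuronal genes the count was 5 (3.29% of all genes tested), with Tubb3 and Tubb5 added.

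The summed α-tubulin members had 581, 560 and 511 CPM per kb in treated libraries and 525, 532 and 509 CPM per kb in controls. The summed β-tubulin members had 1505, 1511 and 1249 CPM per kb in treated libraries and 1381, 1352 and 1226 CPM per kb in controls. Both sums overlapped between the groups, with treated replicate 3 among the controls. Tubb3 made up 44.4 ± 1.59% of the β-tubulin sum in treated and 45.4 ± 0.385% in control libraries, Tubb5 20.1 ± 1.20% and 19.3 ± 0.485%, and Tubb2b 6.21 ± 0.358% and 5.34 ± 0.266% (SD, n = 3). Tuba1a made up 89.0 ± 0.121% of the α-tubulin sum in treated and 88.3 ± 0.730% in control libraries. Tuba4a, the isotype without a final tyrosine, made up 5.32 ± 0.719% in treated and 6.17 ± 0.263% in control libraries, with the lowest share in treated replicate 3, and Tuba1c 0.149 ± 0.0423% in treated and 0.0532 ± 0.00773% in control libraries.

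**Figure D3:**
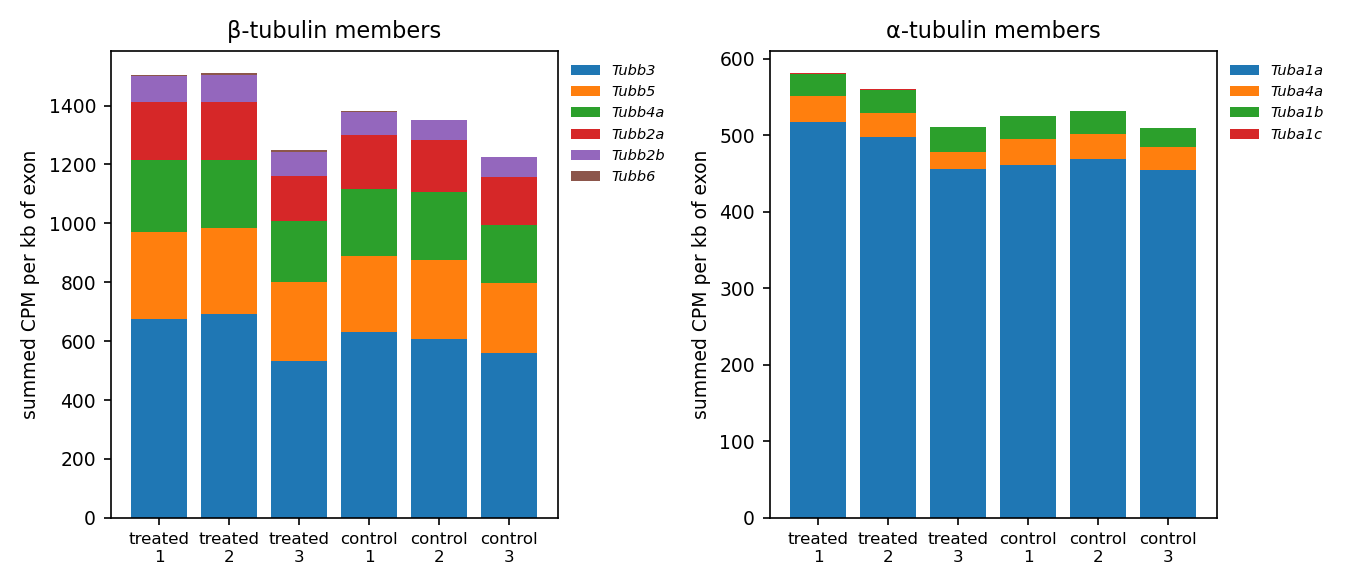
Summed CPM per kb of exon of the β-tubulin members (left) and α-tubulin members (right) in each library, treated libraries left of controls, coloured by gene; Tubb6 and Tuba1c are too small a share to be seen. Treated replicates 1 and 2 have the tallest bars, and treated replicate 3 lies at the height of the controls.

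Across the 6 libraries the members fell into patterns that are given as a description. The points are libraries of 2 groups, and their summed pan-neuronal markers differ. Tubb3 and Tubb2a followed each other most closely, with a Pearson r of 0.99 of log2 CPM. Tubb6 followed Tuba1c at r = 0.83 and Tubb2b at r = 0.79, and had r = 0.06 with Tubb3 and r = -0.62 with Tuba4a. Over 12196 other genes with a mean log2 CPM of 2 or more, the 5 genes most like Tubb6 were Sox11 (r = 0.995), 9130023H24Rik (0.990), Ets2 (0.989), Cd109 (0.987) and Sbno2 (0.986). Sox11, a transcription factor of growing and injured neurons, had 54.9 ± 19.3 CPM in treated and 16.2 ± 1.91 CPM in control libraries.

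Nerve injury genes separated the groups as Tubb6 did, and markers of several other cell types were highest in treated replicate 3. A list of nerve injury and regeneration genes, which holds Sox11, had 15 tested genes, of which 12 had an unadjusted p under 0.05 on the higher side and 1 on the lower (4% and 2.67% of all genes tested), and 0 passed over all genes. Its mean log2 level, with the control mean as zero, stood at 1.34, 2.02 and 2.01 in treated replicates 1, 2 and 3 and between -0.13 and 0.12 in controls, with replicate 1 lowest among the treated libraries, where Tubb6 was lowest too. This list was chosen with its level in these libraries known. Treated replicate 1 also had the lowest treated level of neutrophil, fat cell, macrophage, fibroblast, Schwann cell, satellite glia, endothelial and proliferation markers. Pan-neuronal, vagal sensory neuron and spinal cord markers were lowest among treated libraries in replicate 3, and erythroid and skeletal muscle markers in replicate 2. Neutrophil markers, of which all 6 tested had positive log2 fold changes, were at -0.93, 1.85 and 3.58 in treated libraries and between -1.40 and 1.59 in controls, with summed levels of 1.61 to 49.8 CPM in treated and 1.08 to 13.4 CPM in control libraries. Of the 10 neutrophil markers, Elane, Retnlg, Mmp8 and Cxcr2 were at 0 in at least 1 library. Fat cell markers, with 9 of 9 positive, were at -0.93, 1.96 and 4.72, with summed levels of 29.4 to 632 CPM in treated and 19.4 to 58.5 CPM in control libraries, and Lep was at 0 in at least 1 library.

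Without treated replicate 3, the log2 fold changes of 5 of 6 neutrophil, 8 of 9 fat cell and 8 of 10 macrophage markers were positive. Leaving out that library put the median at 0.42, against 1.96 with all libraries, for neutrophil markers, at 0.96, against 3.51, for fat cell markers and at 0.10, against 1.34, for macrophage markers. Macrophage markers, with 10 of 10 positive and none at 0, were at -0.18, 0.50 and 2.51 in treated libraries, with summed levels of 60.5 to 453 CPM in treated and 48.7 to 116 CPM in control libraries. Schwann cell markers, also 10 of 10 positive and none at 0, summed to 1741 to 2625 CPM in treated and 1369 to 2217 CPM in control libraries. All 10 stayed positive when treated replicate 3 was dropped, and their median log2 fold change moved only from 0.55 to 0.51. Dropping each library in turn gave Schwann cell medians between 0.34 (treated replicate 2 dropped) and 0.88 (control replicate 2 dropped). The summed levels of all 4 of these lists overlapped between the groups, as did those of satellite glia, fibroblast, endothelial, erythroid, skeletal muscle and proliferation markers. Among these, fibroblast markers had 8 of 8 positive log2 fold changes with all libraries and 0 of 8 without treated replicate 3. They summed to 2163 CPM in that library, against 481 and 748 CPM in the other treated libraries and at most 1150 CPM in controls. Erythroid markers had 0 of 5 and skeletal muscle markers 1 of 8 positive, with medians of -1.22 and -1.23. In treated replicate 1 the mean log2 levels of the neutrophil, fat cell and macrophage lists were -0.93, -0.93 and -0.18. The Schwann cell list was at 0.16 in that library, and at 0.86 and 0.66 in treated replicates 2 and 3. Tubb6 was at 8.12 CPM in treated replicate 1, and its highest control was at 4.66 CPM. Without treated replicate 3 the log2 fold change of Tubb6 was 1.26. The part of these cell types in the higher Tubb6 of any treated library was not tested.

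**Figure D4:**
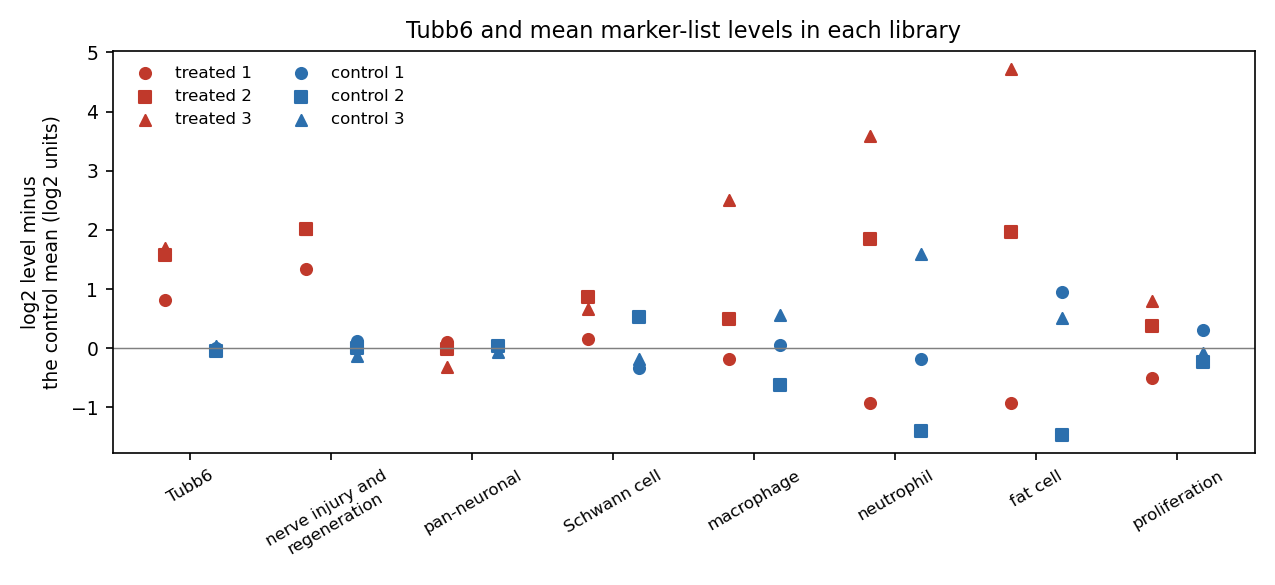
log2 level minus the control mean of Tubb6 and the mean of each marker list, by library (treated red and left, control blue and right; circle, square and triangle are replicates 1, 2 and 3). Tubb6 and the nerve injury list separate all treated from all control libraries. The neutrophil, fat cell and macrophage lists are below the control mean in treated replicate 1 and highest in treated replicate 3. The Schwann cell list is above the control mean in every treated library.

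Among tubulin genes outside the 10 members 0 passed the test, as among the members and among all genes tested. Of 10 such genes, 7 passed the low-count filter and 0 of them passed at an adjusted p of 0.05, nor had any an unadjusted p under 0.05 (6.67% of all genes tested). Tubb4b, a widely made β-tubulin, had 538 ± 76.5 CPM in treated and 554 ± 37.2 CPM in control libraries, with a log2 fold change of -0.04 ± 0.13 (SE). The γ-tubulins, which seed new microtubules, were at -0.09 ± 0.14 for Tubg1 and -0.26 ± 0.14 for Tubg2. Tubd1 was at -0.09 ± 0.28, Tube1 at -0.42 ± 0.44 and Tuba8 at 0.46 ± 0.66. Tubb1, the β-tubulin of platelets, was at 1.59 ± 1.18, with 63 of its counts in treated replicate 3 and 4 to 20 in each other library. Without treated replicate 3 the signs of Tubb4b, Tubg1, Tuba8 and Tubb1 turned, to 0.06, 0.04, -0.17 and -0.95, Tubg2 was at -0.14 and Tube1 at -0.06. Tubd1 was at 0.07 without control replicate 1. Tuba3a, Tuba3b and Tubal3 stayed under 10 counts in every library.

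Genes that fold tubulin or tune its mRNA had small log2 fold changes. The 24 genes of the list take in the tubulin cofactors, the CCT chaperonin, prefoldin and the autoregulation factor Ttc5, and all were tested. At an adjusted p of 0.05 the count was 0, and it was also 0 at an unadjusted p under 0.05 in edgeR, with a median log2 fold change of -0.04. Without treated replicate 1 Cct7 had an unadjusted p under 0.05 at -0.30. The smallest p-values of the list were those of the chaperonin subunit Cct7 at -0.20 ± 0.11 (SE), Tbcel at 0.21 ± 0.15 and the cofactor Tbce at -0.18 ± 0.13, with edgeR adjusted p-values of 0.742 to 0.768. Leaving out treated replicate 3 put them at -0.11, 0.06 and -0.08, and Tbcel was at 0.13 without control replicate 3 and 0.32 without treated replicate 2.

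Of 26 genes for enzymes that modify tubulin, 25 were tested and 0 passed. An unadjusted p under 0.05 was found for 1 on the higher and 1 on the lower side, shares near those of all genes tested (4% and 2.67%). These were Ttll4, a ligase of glutamate chains, at 0.37 ± 0.16 (SE), and Agbl4, which trims such chains, at -0.40 ± 0.16, both with an edgeR adjusted p of 0.737. The tyrosine-removing Vash2 was at 0.30 ± 0.15 (adjusted p = 0.742). Ttll4 was at 0.20 when treated replicate 3 was left out. With single libraries left out, Ttll4 kept an unadjusted edgeR p under 0.05 only without treated replicate 1. Agbl4 kept one only without control replicate 2.

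Microtubule-associated and stabilising proteins had 0 of 28 genes past an adjusted p of 0.05, and a median log2 fold change of -0.10. At an unadjusted edgeR p under 0.05 there were 0 on the higher and 2 on the lower side (4% and 2.67% of all genes tested). Every treated library was above every control for 0 of the 28 genes and below for 6 (7.07% and 7.63% of all genes tested). Tppp, a tubulin polymerisation-promoting protein, had 41.5 ± 7.34 CPM in treated and 57.1 ± 3.54 CPM in control libraries, at -0.46 ± 0.14 (SE, edgeR adjusted p = 0.670). Map7, which recruits kinesin-1 to microtubules, was at -0.46 ± 0.14 (adjusted p = 0.675), and the dendritic protein Map2 at -0.51 ± 0.24 (adjusted p = 0.742). Pan-neuronal markers were also lowest in treated replicate 3, and without that library the median of the list was 0.0015, Tppp was at -0.33, Map7 at -0.31 and Map2 at -0.26. In the same fit 4 of the 28 genes had an unadjusted p under 0.05 on the lower side, where 4.31% of all genes tested did, and 0 on the higher side. Without control replicate 1 the count on the lower side was 1.

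Among 14 destabilising and severing proteins 13 were tested, 0 passed, and 2 had an unadjusted p under 0.05, both on the higher side, where 4% of all genes were. Both encode stathmins, which bind free tubulin and promote microtubule shrinkage. Stmn1 had 205 ± 11.9 CPM in treated and 153 ± 4.83 CPM in control libraries (SD, n = 3), a log2 fold change of 0.42 ± 0.09 (SE) with an edgeR adjusted p of 0.568. Stmn4 had 44.2 ± 7.39 CPM in treated and 29.2 ± 1.54 CPM in control libraries, at 0.60 ± 0.13 (adjusted p = 0.587). For both genes every treated library was above every control. Leaving out treated replicate 3 put Stmn1 at 0.37 and Stmn4 at 0.67, and leaving out treated replicate 2 put both at 0.44. For Stmn2 and Stmn3, stathmins of the same list at higher levels, the groups overlapped. Stmn2 had 843, 808 and 698 CPM in treated libraries and 757, 740 and 771 CPM in controls. Stmn3 had 482, 434 and 459 CPM in treated libraries and 501, 449 and 497 CPM in controls. The severing protein Fign was at 0.30 ± 0.21 (adjusted p = 0.760). It was at 0.11 without treated replicate 2, 0.17 without control replicate 1 and 0.49 without control replicate 2.

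**Figure D5:**
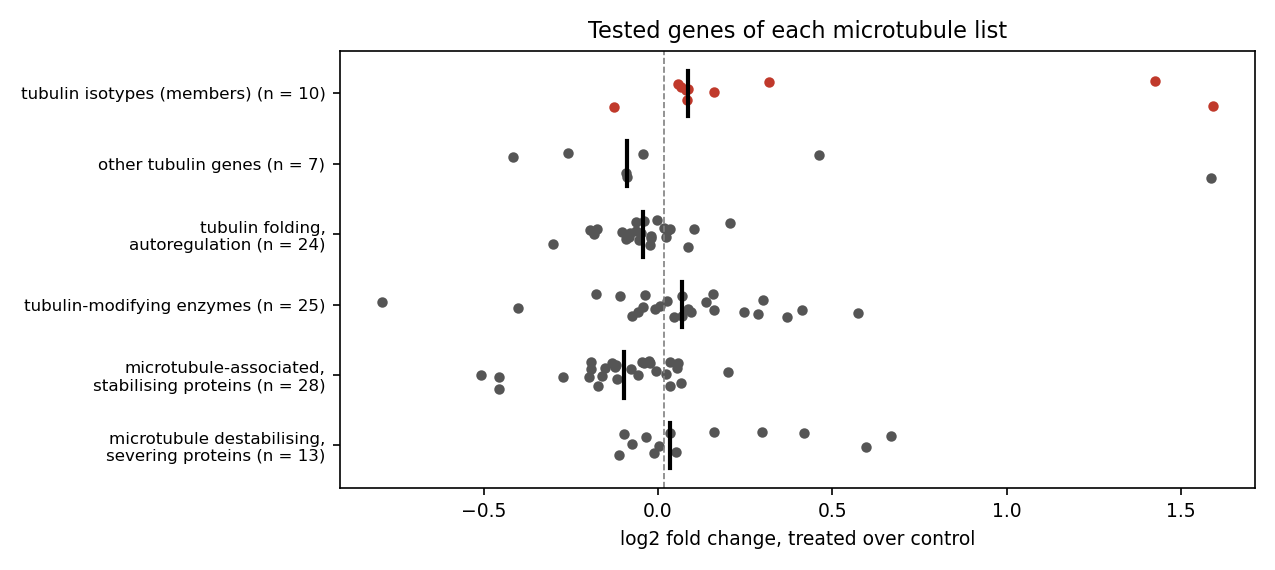
log2 fold change, treated over control, of the tested genes of each microtubule list; points are genes, spread vertically at random, the thick bar is the list's median and the dashed line the median of all genes tested. The 10 members are red, with Tubb6 and Tuba1c at the right, and the folding list is gathered around 0.

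Promoter sequences were found for 8 of the 10 members in the RefSeq table of GRCm38.p6; Tubb6 and Tubb2b are the other members. Each runs from 250 bases before to 50 bases after the gene's start. The promoter of Tuba1c, the α-tubulin gene with the largest log2 fold change, is at chr15:99029641-99029940 on the plus strand and is shown with its CCAAT box in capitals, read here on the opposite strand.
Tuba1c promoter: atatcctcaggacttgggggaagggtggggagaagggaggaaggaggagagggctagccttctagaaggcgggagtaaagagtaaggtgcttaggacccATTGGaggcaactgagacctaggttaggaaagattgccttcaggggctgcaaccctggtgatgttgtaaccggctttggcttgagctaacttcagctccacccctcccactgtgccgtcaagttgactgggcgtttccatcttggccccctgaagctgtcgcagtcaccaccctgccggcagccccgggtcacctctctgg
On both strands, the AP-1 motif TGANTCA was in 0 of the 8 promoters and in 7.81% of all 32851 promoter windows. The cyclic AMP response element TGACGTCA was in the promoter of Tubb2a and in 1.79% of all windows. CCAAT was in those of Tubb3, Tubb5, Tuba1a and Tuba1c and in 37.4% of all windows. These motifs do not overlap each other in the members' promoters, and a match describes letters in the window, not a bound site.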

How the data were processed

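Total RNA of the 6 libraries was made into strand-specific libraries from about 6 ng of input, per the labels' protocols. The deposited values are raw exonic read counts per gene, 1 file per library, and the submitters' processing notes name bcl2fastq 2.20, STAR 2.7.7a, DESeq2, edgeR and build mm10. Not given in the sources used here are the counting program, its annotation and its use of strand. Between 46.6% and 52.3% of reads overlapped a gene.

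Gene lengths, coordinates and transcripts came from GENCODE M21 (GRCm38, the same build as mm10), which matched 32663 of 32719 genes. Counts were fitted with edgeR 4.0.16 in R 4.3.3: filterByExpr with a minimum count of 10, TMM scaling, a robust quasi-likelihood F test and Benjamini-Hochberg adjustment over 16019 genes. SE is the size of the log2 fold change divided by the square root of F. CPM are counts over the TMM-scaled library size, and log2 CPM used a prior count of 2. The fit was tested on simulated data for treated against control, with 200 changed among 16019 genes. It called 45% of those changed 2-fold and 81% of those changed 4-fold, and 8.03% of its 137 calls were false. On the real libraries the fit called 0 genes, with log2 fold changes from -2.98 to 5.42. The simulated shares therefore do not say how many real changes of these sizes the fit would call. limma 3.58.1 and DESeq2 1.42.0 served as alternatives. Depth limits Tuba1c most, with 152 summed counts in treated and 36 in control libraries.

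Members, lists and tests were chosen with earlier results of these data known. Named genes are the members, the other tested tubulin genes, the 3 genes with the smallest p at a mean of 1 CPM or more in each microtubule list, and the 5 genes most like Tubb6. Sox11 is also a member of the injury list. The listed enzyme gene Matcap1 was not matched in the files. Gm49450 and Stk16 were named for their overlap with members, and Stmn2 and Stmn3 as further stathmins of their list.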

Additional observations from a re-analysis of the deposited data

How the results depend on the processing

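Tubb6 kept a positive log2 fold change in all 16 alternatives, between 1.26 (treated replicate 3 left out) and 1.64 (treated replicate 1 left out). Its adjusted p, a description here, ran from 0.00107 with DESeq2 to 0.995 without control replicate 1. Against 0 genes called by the main edgeR test (1068 at an unadjusted p under 0.05), DESeq2 called 89 and edgeR without a low-count filter 26, Tubb6 among each. limma-voom with sample weights called 8 and limma-voom alone 0, and leaving out single libraries gave 0 to 9 (treated replicate 1 left out, 7; treated replicate 3 left out, 9). The cause was not tested. The replicate block gave 1 call. Same-numbered libraries deviated together at r = 0.01, 0.56 and 0.49, and differently numbered ones at r = -0.50 to 0.25. The sources do not say whether the numbers pair samples, so the main fit has no block. Whether they do was not tested.

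Tuba1c, Tubb2b, Tubb5, Tubb3 and Tuba1a kept their sign in every alternative that could be fitted. Without treated replicate 2 Tubb3 was at 0.0023, and without treated replicate 3 at 0.19. Tuba1a ranged from 0.04 to 0.14 when single libraries were left out, Tubb5 from 0.11 to 0.20, Tubb2b from 0.27 to 0.39 and Tuba1c from 1.34 to 1.80. Leaving out a library turned the sign of Tubb2a, Tubb4a, Tuba1b and Tuba4a, none of which differs from 0 by more than its SE. Scaling on pan-neuronal genes, which shifted the median of all genes by 0.08, left the signs of all 10 members as they were and moved Tuba1a to 0.16. The log2 ratio of the sums per length was 0.08 for α-tubulin and 0.11 for β-tubulin, and 0.04 to 0.13 and 0.06 to 0.19 when single libraries were left out. The share of Tubb6 in control β-tubulin was 0.187% with the longest transcript as length, 0.157% with coding length and 0.118% with Tubb4b added, a setting chosen after seeing the data, as were the sums over close copies and the lists and their named genes without single libraries. Without single controls that share was 0.135% to 0.146%.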
